A study of Papilio xuthus with 10 samples.

Results

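In the swallowtail butterfly *Papilio xuthus*, 108 of 15123 genes were abundant in both the adult female and the egg and low in later larvae and in the adult male. These genes were chosen by their RPKM (reads per kilobase of gene, scaled to the size of the library) in 7 of the 10 libraries of a developmental series. With v standing for RPKM + 1, a member had an RPKM of 10 or more in the female adult and of 5 or more in the egg. The lower v of these was at least 6 times the highest v among instars 2 to 5 and the male adult, and v of the female adult was less than 6 times that of the egg. The 1st instar and both pupae were free. Of the comparisons made, that of female and male pupa alone used no library of the rule, and each of the others shares at least 1 library with it. An instar is the period between larval moults.

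The series held 1 library each of egg, larvae of instars 1 to 5, a pupa of each sex and an adult of each sex, all of whole bodies and with no treatment. Eggs and larvae of the first pair of instars were pooled, and each later library came from a single animal. The labels give neither the age within a stage nor the mating state of the adults. No group was replicated, so that each difference is one between 2 libraries and carries no test.

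In insects, the ovary of the adult female loads the growing oocyte with RNA and protein. In Lepidoptera this RNA is made largely by nurse cells that sit beside the oocyte and are linked to it. The deposited egg starts development on these maternal transcripts, and transcription from the genome of the embryo takes over later. Follicle cells around the oocyte secrete the eggshell and stay behind in the mother. A gene seen in both the adult female and the egg can thus be a maternal transcript, or can be used separately in each. Whole-body libraries do not separate these, and in them fewer cells of a type and less RNA per cell cannot be told apart. The table pairs its identifiers with no gene names, and 0 of them were found in the RefSeq table of this species. Roles of the members, ovary markers and sequences are therefore not given, and at most 2 identifiers per direction are printed for most comparisons.

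The totals of the libraries, as recovered from the deposited values, lay between 23378656 and 35161755 reads. Reads at genes summed to between 76.5% and 98.6% of these totals in the egg, 1st instar, pupae and adults, and to between 124% and 154% in instars 2 to 5. Under the rule, 69 genes passed with upper quartiles made equal across libraries, all of them members, and 235 passed with sums made equal, all 108 members among them. The egg and 1st-instar libraries were alike, with a Spearman's rho of 0.976 across genes against at most 0.915 for the remaining 44 pairs of libraries. A member's value in the 1st instar is accordingly not a separate view of a larva that is unlike the egg, and with the 1st instar put in place of the egg the rule kept 65 of the 108 genes and added none.

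The members reached a median RPKM of 47.5 in the egg, and of 29.8 once larvae were in the 1st instar. Their median was 0.488, 0.550, 0.546 and 0.275 in instars 2, 3, 4 and 5. Pupae had medians of 3.40 (female) and 3.15 (male), and adults of 80.3 (female) and 1.30 (male). The members were thus high in the egg, the 1st instar and the female adult, and their pupal medians lay between these and the low libraries. The rule had set the egg and female adult high and the low libraries low, so nothing is read from that place between. In the female pupa and in the male pupa the members' median was below that of all genes in the same library. Over all genes the medians were between 3.06 and 9.22 in every library. Each of the 108 genes was detected (RPKM of 1 or more) in the 1st instar, where 78.5% of all genes were. The rule set a floor of 5 in the egg, which the 1st-instar library resembled, so that this count was largely fixed. In the 2nd instar 44 were detected and in the 5th 24, where 67.5% and 71.2% of all genes were, and the rule itself held both of these libraries low.

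**Figure D1:**
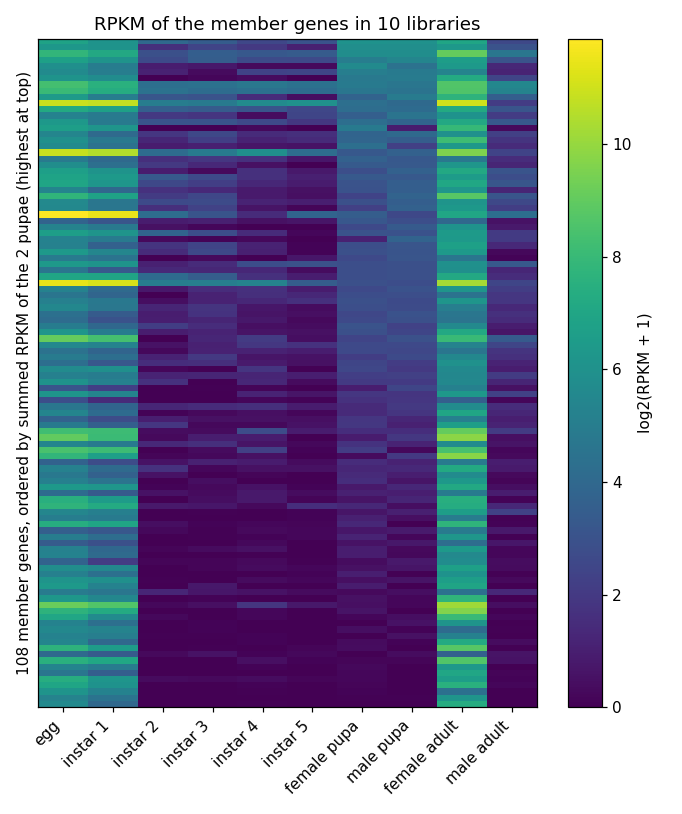
Heat map of log2(RPKM + 1) for the 108 member genes (rows, ordered by the summed RPKM of the pupae, highest at the top) in the 10 libraries (columns). The egg, 1st instar and female adult are bright in nearly all rows, instars 2 to 5 and the male adult are dark by the rule, and the pupae grade from medians of 25.5 (female) and 23.5 RPKM (male) in the 16 genes at 10 or more in both to below 1 in both pupae in 28 genes.

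As a part of each library, the members made up 2.28% of summed RPKM in the female adult, 2.07% in the egg and, among larvae, 1.18% in the 1st instar. In the female pupa they held 0.0769% and in the male pupa 0.0700%. Counted in reads, they took 1.997% of reads at genes in the female adult (exact 95% interval 1.991 to 2.002%), 1.793% in the egg (1.788 to 1.798%) and 1.062% in the 1st instar (1.059 to 1.066%). These intervals, and those given below, cover counting error only. A few genes carried much of the sum in the egg, where the 4 most abundant members held 52.9% of the members' summed RPKM, whereas the top 4 of the female adult held 27.5% of it there.

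The highest member in the female adult was RR46_05367. It reached 1956 in the egg, then 1735 in the 1st instar, 31.5, 27.4, 52.4 and 63.6 in instars 2 to 5, 19.3 (female) and 15.7 (male) in the pupae, and 2067 (female) and 3.33 (male) in the adults. Female adult and egg were close, a ratio of 1.06 in v, with exact 95% intervals of 2042 to 2091 in the female adult and 1932 to 1980 in the egg. The 1st instar was also near the egg, the other 7 libraries were far lower but above the limit of 3 reads, and the lowest value was that of the male adult. RR46_05365, the next highest in the female adult, was at 1243 there and at 2790 in the egg, with 2293 in the 1st instar, 31.7, 32.4, 38.3 and 10.4 in instars 2 to 5, 6.50 (female) and 5.92 (male) in the pupae, and 4.51 in the male adult. The highest member in the egg, RR46_03596, leaned much further towards the egg. It had 3728 in the egg, 2854 in the 1st instar, 17.5, 7.53, 1.73 and 13.0 in instars 2 to 5, 10.1 (female) and 4.89 (male) in the pupae, and 128 (female) and 18.2 (male) in the adults.

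The rule bounded the excess of the female adult over the egg, but not that of the egg over the female adult. For comparison, 6443 genes reached both floors of the rule, 10 in the female adult and 5 in the egg. In log2(RPKM + 1), the female adult minus the egg had a median of 0.62 (quartiles 0.01 and 1.11) and ran from -4.86 to 2.34. This median was 0.38 over genes at both floors and 0.00 over all genes. The female adult was higher in 81 members (75%), where it was in 49.2% of all genes and 66.2% of genes at both floors, and the egg was higher in 27. Within 2-fold lay 71 members (65.7%), close to the 66.0% of all genes and 68.7% of genes at both floors. RR46_11934 and RR46_12474 had the largest excess in the female adult, at 129 against 24.6 in the egg and at 290 against 61.2 in the egg. At the other end, RR46_03596 had the 128 and 3728 given above, and RR46_03332 had 19.6 in the female adult against 70.4 in the egg. Only 2 genes failed the rule on the upper bound alone, and they were looked up after their values were seen. RR46_08220 was at 5289 in the female adult and 800 in the egg, and RR46_05487 at 143 in the female adult and 19.2 in the egg.

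The distance from the low libraries varied widely among members. The lower v of female adult and egg was between 6.03 and 273 times the highest v among the low libraries, with a median of 13.1. In 19 members this ratio was below 7, and 30 genes with a ratio from 5 up to 6 met the other conditions and stayed outside. Just inside was RR46_04049, with 35.0 in the female adult, 7.67 in the egg and at most 0.437 in the low libraries. RR46_14512 was also just inside, with 60.2 in the female adult, 80.5 in the egg and 9.03 in the male adult. Just outside were RR46_12870, with 21.0 in the female adult, 14.7 in the egg and 1.65 in the male adult, and RR46_11609, with 66.9 in the female adult, 76.7 in the egg and 10.4 in the 4th instar. The edge of the set was hence set by small differences in low values.

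The highest low value came from the male adult in 40 members, the 3rd instar in 22, the 4th in 20, the 2nd in 17 and the 5th in 9. Without the male adult in the rule the set grew to 180 genes, with all 108 kept, so that this single library decided 72 exclusions. Some 41 members were below an RPKM of 1 in each of the 5 low libraries, and 39 had 0 reads in at least 1 of them. The rule held all 5 low, so these counts describe the choice of genes, and no share of other genes is set beside them. RR46_13058 was named after its values were seen, as the only member with 0 reads in all 5. It stood at 71.9 in the female adult, at 38.7 in the egg and at 22.1 in the 1st instar, where 3 reads in the 2nd instar would be 0.164. Each pupa held 1 read of it, at 0.0457 in the female and 0.0423 in the male, which is below the level of 3 reads.

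Male adults were not free of all members. In the male adult, which the rule held low, 57 members were detected, where 82.2% of all genes were. Of these, 15 were at 5 or more and 3 at 20 or more. The highest, named after its values were seen, was RR46_10569, with adults at 395 (female) and 43.4 (male). By the rule, all 108 members had the female adult above the male adult by more than 2 in log2(RPKM + 1), where 8.87% of all genes were. The difference ran from 2.61 to 9.72 with a median of 4.83. Nothing is read from this count, which the choice of genes fixed.

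Female and male pupae were compared to see whether the female excess of the adult was already there in the pupa, and neither pupa had been used to choose the genes. A female excess of 4-fold on RPKM + 1 was not seen for most members. That scale cannot show one where both pupae are low, whatever the ratio of the RPKM values. The female pupa minus the male pupa in log2(RPKM + 1) had a median of 0.01 (quartiles -0.38 and 0.35), against 0.03 over all genes and 0.07 over genes at both floors. The female pupa was the higher in 55 members and the male pupa in 52. Differences of 2 or more, which is 4-fold on that scale, were found in 2 members towards the female pupa, where 0.456% of all genes and 0.248% of genes at both floors passed. Towards the male pupa 1 member passed, where 4.03% of all genes and 0.279% of genes at both floors did. Within 2-fold lay 96 of the 108 (88.9%), where 89.5% of all genes and 96.5% of genes at both floors did. This share was thus no higher than the background. The shares include genes below an RPKM of 1 in both pupae, which RPKM + 1 places within 2-fold in any case. Such genes were 28 of the members (25.9%), 17.9% of all genes and 1.10% of genes at both floors, so the shares are not like for like. With a pseudocount of 0.1 in place of 1, 9 members passed towards the female pupa and 6 towards the male pupa. The share of all genes at this pseudocount is not given here, so these counts cannot be set against a background. With sums made equal, the median was 0.10 for the members and 0.14 for the genes that averaged at least 1 RPKM. No interval for this median over animals can be given from 1 pupa per sex.

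**Figure D2:**
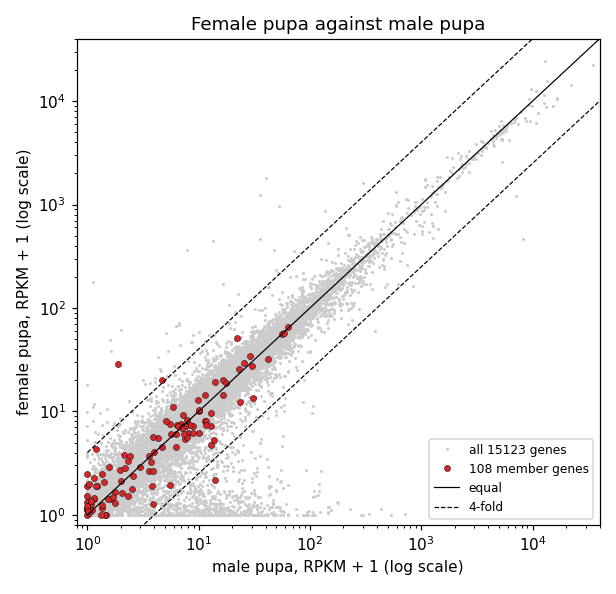
Female pupa (vertical axis) against male pupa (horizontal axis), both as RPKM + 1 on log scales, for the 108 members (red) over all 15123 genes (grey), with lines of equality and of 4-fold difference. Members run from 0 to 65.0 RPKM. On this scale 96 of the 108 lie within 2-fold of equality, with 2 above the upper and 1 below the lower 4-fold line. Of the 96, 28 are below 1 RPKM in both pupae, which this scale places within 2-fold in any case.

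Few members passed 4-fold on RPKM + 1. In these the counting intervals of the female and male pupa did not overlap, which their choice by that difference largely fixed. How many pass depends on the scale, with 9 and 6 members at a pseudocount of 0.1, for which no background share is given. Within 2-fold was also a smaller share of members (88.9%) than of genes at both floors (96.5%). RR46_15274 had the largest female excess. It reached 99.1 in the egg, then 71.8 in the 1st instar, 0, 0, 0.185 and 0 in instars 2 to 5, 28.0 (female) and 0.890 (male) in the pupae, and 248 (female) and 0.218 (male) in the adults. The pupal difference was 3.94, with exact 95% intervals of 25.9 to 30.2 for the female and 0.564 to 1.34 for the male. This gene was thus high in the female of both stages and below 1 in both males and in instars 2 to 5. RR46_14247 followed, with a female pupa at 19.3 (17.7 to 21.0) and a male pupa at 3.68 (3.03 to 4.43), a difference of 2.12. It had 78.7 in the female adult, 1.75 in the male adult and 50.5 in the egg.

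On the other side, RR46_14335 ran against its adult pattern, which the rule had fixed. It had 1.15 (0.815 to 1.58) in the female pupa against 12.9 (11.7 to 14.1) in the male pupa, a difference of -2.69. In adults the female had 81.4 (78.5 to 84.4) and the male 3.00 (2.43 to 3.67). RR46_12663 was next, at 0.267 in the female pupa and 2.93 in the male pupa, a difference of -1.63 that stayed under the threshold.

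Pupae differed far more between members than between sexes. In the female pupa 74 members were detected and in the male pupa 71, or 68.5% and 65.7%, where 75.2% and 79.1% of all genes were. Both pupae passed in 65 members (60.2%), where they did in 72.2% of all genes and in 98.1% of genes at both floors, which members also had to reach. Neither passed in 28 members (25.9%), against 17.9% of all genes and 1.10% of genes at both floors. The female pupa alone passed in 9 (8.33%), against 3.04% of all genes and 0.326% of genes at both floors. The male pupa alone passed in 6 (5.56%), against 6.88% of all genes and 0.466% of genes at both floors. In 16 members (14.8%) the RPKM was 10 or more in both pupae, against 40.2% of all genes and 79.8% of genes at both floors. The level in pupae was at most 65.0, in RR46_13553, with 62.4 in the male, 125 in the female adult and 112 in the egg.

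The 65 members present in both pupae and the 28 below 1 in both were alike in the adult female and the egg. The 65 had medians of 78.7 in the female adult and 50.0 in the egg, and the 28 had 89.4 in the female adult and 43.5 in the egg. They differed in the libraries that the rule kept low. In the male adult the median was 2.67 for the 65 and 0.125 for the 28, and in the 3rd instar it was 1.80 for the 65 and 0.0178 for the 28. Members seen in both pupae were therefore also those with the higher residual medians in later larvae and in the male adult. This did not extend to members seen in 1 pupa only. Their male-adult medians were 0.142 in the 9 of the female pupa alone and 0.390 in the 6 of the male pupa alone. The split was made on pupal values after they were seen, and it is a description. Length was given by the values too, and its median was 1014 bp in the 65 and 814.5 bp in the 28.

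**Figure D3:**
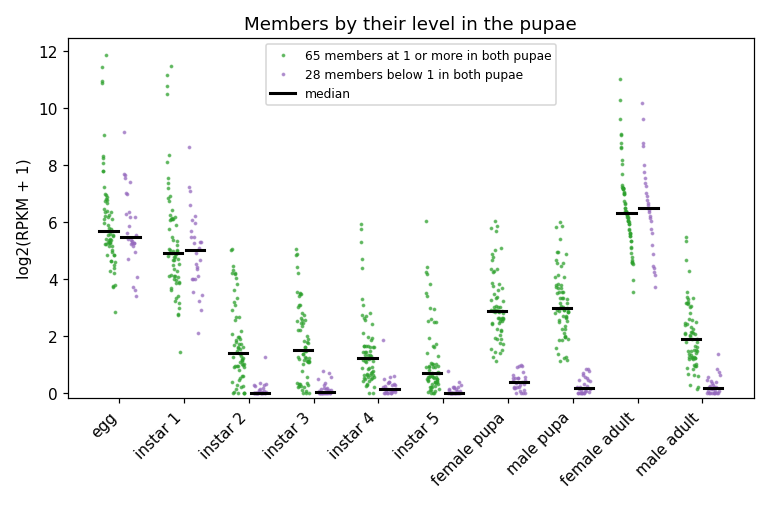
Log2(RPKM + 1) of each member in the 10 libraries, for the 65 members at an RPKM of 1 or more in both pupae (green) and the 28 below 1 in both (purple), with black bars for the medians. The classes have medians of 78.7 and 89.4 RPKM in the female adult and of 2.67 and 0.125 RPKM in the male adult.

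From female pupa to female adult, the members were all lower in the pupa. So were 50.6% of all genes and 67.9% of genes at both floors. The female pupa minus the female adult had a median of -4.06 and ran from -9.65 to -0.24. By 2 or more, 95 of 108 members were higher in the female adult, where 6.17% of all genes were. Of genes at both floors, 608 of 6443 were. The female adult had been used in the choice and the female pupa had not, so that part of this difference was fixed. The smallest differences were in RR46_07622, with pupae at 33.0 (female) and 28.2 (male) and adults at 39.2 (female) and 1.30 (male), and in RR46_11153, with pupae at 56.5 (female) and 57.0 (male) and adults at 78.1 (female) and 7.20 (male). Both of these genes were within 2-fold of the female adult in the pupae and lower in the male adult. Similarly, the male pupa was higher than the male adult by 2 or more in 13 members, where 4.87% of all genes were, and the rule had kept the male adult low.

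The 1st instar was compared with the egg to follow the transcripts after hatching. No member differed by 2 or more in log2(RPKM + 1), which 0.00661% of all genes did towards the egg. Yet 107 of the 108 members were lower in the 1st instar, where 61% of all genes and 76.2% of genes at both floors were. The median difference was -0.76 (quartiles -1.07 and -0.44), against -0.13 over all genes and -0.37 over genes at both floors. Lower by 1 or more were 30 members (27.8%), where 4.71% of all genes and 8.96% of genes at both floors were. The egg had been used in the choice and the 1st instar had not, and how far this fixed the difference was not tested. With upper quartiles made equal, the 13055 genes that averaged at least 1 RPKM had a median of 0.02 and the members one of -0.48. Lower in the 1st instar were then 94 members, 46.6% of those genes and 58.3% of genes at both floors. With sums made equal, the medians were -0.46 for those genes and -1.09 for the members. All 108 members were then lower, beside 79.7% of those genes and 90.5% of genes at both floors. Relative to those genes the members thus stood at -0.59 without rescaling, -0.50 for equal upper quartiles and -0.63 for equal sums. Relative to genes at both floors they stood nearer, at -0.38, -0.37 and -0.39 in the same order.

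**Figure D4:**
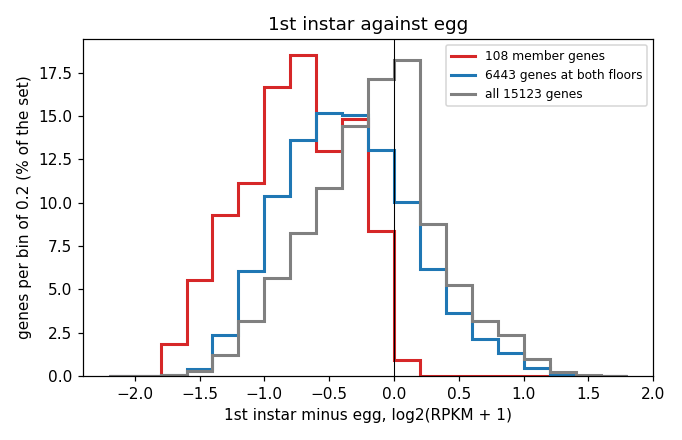
Distribution of the 1st instar minus the egg in log2(RPKM + 1), in bins of 0.2, as the percent of each set, for the 108 members (red), the 6443 genes at both floors (blue) and all 15123 genes (grey). The members' median lies at -0.76, that of genes at both floors at -0.37 and that of all genes at -0.13, and 1 member lies above 0.

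The single member above 0 was RR46_02359, with 58.9 in the 1st instar and 52.4 in the egg. RR46_12329 was nearly level, with 119 in the 1st instar and 126 in the egg. The largest declines were in RR46_12807, with 15.1 in the 1st instar and 48.2 in the egg, and in RR46_07632, with 3.30 in the 1st instar and 12.1 in the egg. These last genes were several times higher in the female adult than in the egg, at 164 for RR46_12807 and 52.9 for RR46_07632. RR46_12807 also had 0 reads in both pupae and in the male adult, where 3 reads would be 0.0940 (female pupa), 0.0870 (male pupa) and 0.0979 (male adult).

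Members with a larger excess of the female adult over the egg had a lower 1st instar relative to the egg. Both differences share the egg library, and they are given side by side without a test. In the 31 members at 2-fold or more in the female adult over the egg, the 1st instar minus the egg had a median of -0.98. It was -0.77 in the 50 members with a smaller female excess and -0.47 in the 27 members higher in the egg. The same order was found among the other genes at both floors, with -0.57 in 1432 genes, -0.48 in 2755 and -0.16 in 2148. In each of the bins the members had the lower median.

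Between the 1st and the 2nd instar the members fell away. In 97 of the 108 the 1st instar was higher by 2 or more, where 14.1% of all genes were, and the median difference was 4.00 against 0.50 over all genes. The rule kept the 2nd instar at least 6 times below the egg in v, and the 1st-instar library was close to the egg, so this count was largely fixed. The smallest difference was still 1.42. Within the later larvae, 58 members were higher in the 2nd than in the 5th instar and 35 lower, with 15 equal. The 2nd instar was the higher in 39.6% of all genes and in 46.7% of genes at both floors. These instars had been used in the choice and came from libraries whose reads at genes exceeded the total.

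Neighbouring sets were cut with the same thresholds, to see where the members stood among them. A first set held 44 genes whose v in the female adult was at least 6 times the low libraries and at least 6 times the egg. The second held 192 genes for which the egg was at least 6 times the low libraries and the female adult. In the third were 130 genes with the female adult high and within 6-fold of the egg, but with an egg value short of the rule. Members were detected in the female pupa in 68.5%, against 38.6%, 34.4% and 90% in these sets, and in the male pupa in 65.7%, against 27.3%, 28.6% and 90%.

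A difference between the members and the egg set appeared in the 1st instar. The members had a median of 29.8 in the 1st instar and 47.5 in the egg, whereas the 192 genes of the egg set had 98.3 in the 1st instar and 101 in the egg. Their median difference between the 1st instar and the egg was -0.01, against -0.76 in the members and -0.94 in the 130 genes. The genes of the egg set spread widely around that median, with quartiles of -0.68 and 0.81 and with 96 lower and 96 higher in the 1st instar, whereas 107 of 108 members and 129 of the 130 genes were lower. The sets are cut from the same 2 libraries and no test was run on them.

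Recovered gene lengths had a median of 888 bp in the members (quartiles 585.75 and 1528.5 bp), 1047 bp in genes at both floors and 1002 bp in all genes. Below 500 bp were 22.2% of the members, 18.1% of genes at both floors and 22.8% of all genes. The members were thus of ordinary length. The 20 members highest in the female adult were shorter, with a median of 556.5 bp and 9 of 20 below 500 bp. A recovered length is the smallest that the values allow, and length enters RPKM as a divisor. None of the members had a near-identical copy, taken as another gene of equal length with read numbers within 2% or 3 reads of it throughout.

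Identifiers of members often followed one another. Of the 108, 22 (20.4%) had an identifier number next to that of another member, in 9 stretches. Among all other genes 1.21% stood next to a member, and among the other genes at both floors 1.52%. With gaps of up to 4 numbers, 30 members fell into 12 stretches. Whether adjacent numbers are adjacent genes is not given in the sources used here.

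The longest stretch, singled out after its values were seen, ran from RR46_12655 to RR46_12659 with 5 members in a row, and RR46_12663 lay 3 non-members further on. These 6 genes had between 174 and 1139 RPKM in the female adult and between 76.5 and 573 in the egg. In the 1st instar they had between 43.5 and 397, and in no other library did any of them pass 2.93. They were short, at 312 to 690 bp, and together made up 18.2% of the members' summed RPKM in the female adult and 8.69% in the egg. RR46_12659 was the highest, with 573 in the egg, 397 in the 1st instar, 0.201, 0.388, 2.60 and 0.701 in instars 2 to 5, 0.420 (female) and 0.155 (male) in the pupae, and 1139 (female) and 0.350 (male) in the adults. The 3 non-members between ranged from 1.55 to 44.1 over all libraries, with 2.89 to 37.3 in the female adult.

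**Figure D5:**
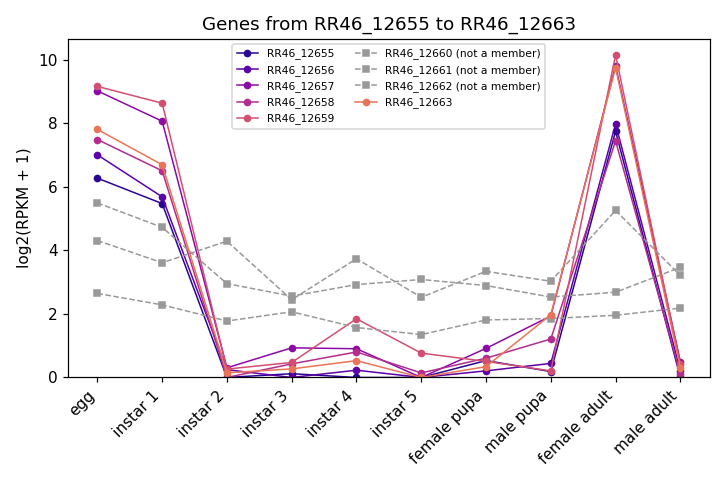
Log2(RPKM + 1) in the 10 libraries for the genes from RR46_12655 to RR46_12663, with the 6 members as solid coloured lines and the 3 non-members as dashed grey lines. The members lie at 174 to 1139 RPKM in the female adult, at 76.5 to 573 in the egg and at most at 2.93 in instars 2 to 5, the pupae and the male adult.

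A second stretch held 3 of the 4 members most abundant in the egg. RR46_05364 and RR46_05365 were adjacent in number and RR46_05367 followed after 1 non-member. RR46_05364 had 771 in the female adult, 1869 in the egg, 1428 in the 1st instar and at most 59.9 elsewhere, in the 4th instar. The gene numbered between them, RR46_05366, was highest in the 2nd instar, at 635, with 32.8 in the female adult and 70.8 in the egg. In the 2nd instar RR46_05364, RR46_05365 and RR46_05367 were at 17.2, 31.7 and 31.5. These values were far below those in the egg but above the median of 3.06 over all genes in that library.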

How the data were processed

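Poly-A RNA of whole bodies was sequenced from both ends on an Illumina instrument, with 1 library per stage. The authors deposited RPKM, made against their own genome assembly and gene models. The submitters' processing notes name TopHat 1.0.12 and 1.4.1 with no role. Use of strand and of reads with several hits is not given in the sources used here. RPKM leaves differences in library composition in place. Totals, gene lengths and whole reads were solved from ratios of the deposited RPKM, as the smallest whole numbers that give them. All 15123 genes came out whole (within 1e-06 reads), and 99.9% of lengths were multiples of 3 bp. The steps were tested on simulated data. Reads served for exact Clopper-Pearson intervals, the limit of 3 reads, sums and shares of reads at genes, and counts of 0 reads. They also served for a filter among the alternatives and for the search for near-identical copies.

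Differences used log2(RPKM + 1), which understates changes of low genes, with a threshold of 2. Alternatives were another pseudocount, scaling, threshold, filter and rule. The members, lists and rules were chosen with earlier results of these data known. Genes were named as the 2 at either end of each comparison, and others as chosen after their values were seen. The identifiers matched 0 of the 13139 genes of RefSeq assembly Pxut_1.1. Python 3.11.15, numpy 2.4.6, pandas 2.3.3 and scipy 1.17.1 were used.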

Additional observations from a re-analysis of the deposited data

Results flagged for a closer look

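In RR46_14335 the sexes differed in one direction in pupae and in the other in adults. The rule fixed the adult direction in every member, so that only the pupal direction was free. The female minus the male was -2.69 in pupae and 4.37 in adults on log2(RPKM + 1). Whether the stages differ was not tested, since each sex had 1 library per stage. No other member passed a difference of 2 in both stages with opposite signs, since no other passed towards the male pupa.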

How the results depend on the processing

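The 23 results were recomputed to give 81 alternative values, of which 65 kept close to the value reported, 16 moved and 0 reversed. The number of members was 69 at the same upper quartile, all among the 108, and 235 at the same sum, with all 108 kept. It was 180 without the male adult and 65 with the 1st instar in place of the egg, an alternative chosen after seeing the data. Between pupae, a pseudocount of 0.1 gave 9 members higher in the female and 6 higher in the male. No share of all genes was set beside these. At a difference of 1, 5 members passed towards the female pupa and 7 towards the male pupa. There, 445 and 1142 of all 15123 genes passed, and 96 and 131 of the 6443 genes at both floors. A difference of 1 gave 30 members lower in the 1st instar than in the egg, and a pseudocount of 0.1 gave a median of 5.57 between 1st and 2nd instar. At an RPKM of 5, 46 members were detected in the female pupa and 46 in the male pupa. Without the 100 most abundant genes the members' share of summed RPKM was 3.30% (egg), 2.25% (1st instar), 0.139% (female pupa) and 0.135% (male pupa). A lower threshold or fewer genes in the sum act by construction, and the other causes were not tested. No paired analysis was possible because each group had 1 library. Depth limits values near 3 reads, an RPKM of 0.0853 to 0.128 at a gene of 1 kb.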
